A study of Mus musculus with 6 samples.

Results

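The subject is 2 nuclear noncoding RNAs, Malat1 and Neat1, in 6 libraries of mouse cerebral cortex made by CLIP-seq, in which RNA crosslinked to a protein is pulled down with it and sequenced; the proteins were the polypyrimidine tract binding proteins PTBP1 and PTBP2. The loci were chosen by name and position with earlier results of these data known, and the values behind that choice were the shares of listed intervals in each library. Those shares are therefore given as descriptions, with no test. A member is a distinct interval (a unique chromosome, strand, start and end) whose midpoint lies on the minus strand of mm9 chromosome 19 from 5.795 to 5.803 Mb (Malat1) or from 5.824 to 5.846 Mb (Neat1). There were 18391 such intervals of 962410 over all 6 libraries, and 18390 of them lay in Malat1. The Neat1 locus held 1.

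All libraries came from BL6/129Sv mice on postnatal day 1, from nuclear fractions of cortex irradiated with ultraviolet light at 400 mJ/cm2. FLAG antibody was used on wild-type cortex (2 libraries, replicates 1 and 2), on Rosa-PTBP1; Emx1-cre cortex (1 library) and on Rosa-PTBP1; PTBP2 loxp/loxp; Emx1-Cre cortex (1 library). A PTBP2 polyclonal antibody was used on wild-type cortex (1 library) and on Rosa-PTBP1; Emx1-cre cortex (1 library). The labels name FLAG-PTBP1 as the target of every FLAG library, those of wild type included. Emx1 drives Cre in the lineage of cortical excitatory neurons and glia, so other cells of the cortex, such as interneurons and vessel cells, lie outside it. Wild-type cortex carries no Rosa-PTBP1 allele, and what its 2 FLAG libraries list is background. The 4 other libraries are called the PTBP libraries here. Chromosomes 4 to 9 held 5.84% of the intervals of PTBP2 in Rosa-PTBP1 cortex, against 29.1% to 34.5% in the other 5 libraries. Chromosome 10 held 0.151% of the intervals of FLAG Rosa-PTBP1, against 3.78% to 8.56% in the others. Shares of a whole list are therefore also given on 12 chromosomes that every library filled. The percents of other windows given below keep all chromosomes. Windows of a sparse chromosome tend to count there as lower in the library that lacks it. The labels do not say whether any library pooled animals or whether the wild-type replicates came from separate animals. Markers of cortex were not analysed here, since the intervals carry no gene names.

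Malat1 is a long, abundant RNA that stays in the nucleus and collects at nuclear speckles, the compartments rich in splicing factors. Neat1 comes from the neighbouring gene and is the scaffold of paraspeckles, nuclear bodies that assemble on its long isoform together with RNA-binding proteins. PTBP1 and PTBP2 bind pyrimidine-rich RNA, with motifs such as UCUU and CUCUCU, and act as splicing regulators. Neurons lose PTBP1 as they form and carry PTBP2 while they mature.

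Both RNAs contain the motif letters to which these proteins bind. The GENCODE M21 annotation of the GRCm38 build gives a transcript of 6983 bases for Malat1 and of 20771 bases for the long Neat1 form. On the transcript strand, with overlapping matches counted, TCTT (the DNA letters of UCUU) occurred 52 times in Malat1, or 7.45 per kb, and 137 times in Neat1, or 6.60 per kb. The median of 3828 lincRNA transcripts of 1000 bases or more was 6.17 per kb, and 99.9% of them held the motif. CTCTCT, which can overlap TCTT by its last bases, occurred 2 times in Malat1 and 16 times in Neat1, or 0.286 and 0.770 per kb against a median of 0.561, and 65.1% of the transcripts held it. The 60-base stretches with most TCTT show what a cluster of the motif looks like in each RNA, with TCTT in capitals and positions counted from the transcript's first base (Malat1 from 5384 to 5443, Neat1 from 734 to 793).
Malat1: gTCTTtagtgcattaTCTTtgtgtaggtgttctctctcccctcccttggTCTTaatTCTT
Neat1: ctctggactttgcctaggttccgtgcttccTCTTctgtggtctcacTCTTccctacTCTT
A stretch with at least as many copies (4 for Malat1, 3 for Neat1) was present in 14.9% and 48.3% of the lincRNA transcripts. Their median length was 1696.5 bases, and a longer transcript offers more stretches, so these percents are not matched for length. The intervals below are in mm9 and were not placed on these transcripts, so no interval is tied to a motif here.

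Malat1 held more distinct intervals than any other 8-kb window tiled on either strand, in each of the 6 libraries. The FLAG library of Rosa-PTBP1 cortex listed 5039 Malat1 intervals of 351602, a share of 1.43% (exact Clopper-Pearson 95% interval 1.39 to 1.47). The FLAG library with PTBP2 loxP alleles listed 3598 of 265953, or 1.35% (1.31 to 1.40). PTBP2 listed 3018 of 155447 in wild type, or 1.94% (1.87 to 2.01), and 2087 of 74416 in Rosa-PTBP1 cortex, or 2.80% (2.69 to 2.93). All intervals of this kind cover counting error only, and amplified reads are not independent molecules.

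Of all libraries, the background held both the lowest and the highest Malat1 share. Wild-type FLAG replicate 1 listed 414 Malat1 intervals of 88327, or 0.469% (0.425 to 0.516), and replicate 2 listed 4234 of 26665, or 15.9% (15.4 to 16.3). The 2 replicates differed 33.9-fold and lay on either side of all 4 PTBP libraries (mean 8.17% ± 10.9, SD, n = 2). Malat1 stood furthest above the next window in the background libraries. In replicate 2 it held 22.1 times and in replicate 1 7.14 times the intervals of the next 8-kb window, which lay on the minus strand of chromosome 2 (192 and 58 intervals). In the FLAG libraries of Rosa-PTBP1 cortex without and with loxP alleles the ratio to that same window was 1.78 and 1.69. For PTBP2 the next window lay on the minus strand of the X chromosome, and the ratio was 1.76 in wild type and 1.31 in Rosa-PTBP1 cortex.

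Called here is a ratio of 2-fold or more. Against replicate 1 the Malat1 share was higher by 2-fold or more in 4 of 4 PTBP libraries. It was 3.06-fold higher (exact conditional 95% interval 2.77 to 3.39) in FLAG Rosa-PTBP1, 2.89-fold (2.61 to 3.20) with loxP alleles, 4.14-fold (3.74 to 4.60) for PTBP2 in wild type and 5.98-fold (5.38 to 6.66) for PTBP2 in Rosa-PTBP1 cortex. Of the other 8-kb windows with 20 or more intervals in the libraries compared, 78.3%, 78.9%, 85.7% and 90.4% were higher by 2-fold or more, in the same order. Those lower by 2-fold or more were 1.87%, 2.08%, 1.51% and 1.74%. Windows entered this comparison mostly through the PTBP library. Alone, 3334, 2374, 1509 and 535 windows held 20 or more intervals in the PTBP libraries, against 26 in replicate 1 and 57 in replicate 2. The filter thus favours windows higher in the PTBP library, here and in the comparisons with replicate 2 and the mean. With merged sites counted in place of intervals, the ratios to replicate 1 were 1.11, 1.74, 1.75 and 2.68, so 1 of 4 was past 2-fold. With sites of 5 or more intervals all 4 turned, to 8.46-, 8.68-, 5.34- and 2.63-fold lower. That cutoff left 2929 of the 88327 intervals of replicate 1 in the denominator. Against replicate 2 the Malat1 share was lower by 2-fold or more in 4 of 4, by 11.1-fold (10.6 to 11.5), 11.7-fold (11.2 to 12.3), 8.18-fold (7.80 to 8.57) and 5.66-fold (5.37 to 5.97). On chromosome 19 alone none of these 4 was past 2-fold (1.62-, 1.56-, 1.45- and 1.60-fold lower). Malat1 is part of that denominator and made up 89.5% of it in replicate 2, near the ceiling of a share, which narrows these ratios. Beside its 4234 Malat1 intervals, replicate 2 held 497 on chromosome 19 outside Malat1. The PTBP libraries held 4078, 2674, 1866 and 1641 outside, beside 5039, 3598, 3018 and 2087 in Malat1. Of the other windows over the whole genome, 6.26%, 6.96%, 6.58% and 11.3% were lower than in replicate 2 by 2-fold or more. Those higher by 2-fold or more were 85.1%, 85.2%, 85.5% and 81.0%. Against the mean of both replicates the Malat1 share was lower by 5.70-, 6.04-, 4.21- and 2.91-fold, beside 5.62%, 6.01%, 6.97% and 13.1% of windows lower and 81.2%, 81.9%, 82.9% and 76.5% higher by 2-fold or more. With merged sites, PTBP2 in Rosa-PTBP1 cortex was 0.765 times that mean, no longer past 2-fold. On the 12 filled chromosomes the share of Malat1 was 0.810% and 24.7% in wild-type replicates 1 and 2, 2.26% and 2.33% in FLAG-PTBP1 without and with loxP alleles, and 3.21% and 3.38% for PTBP2 in wild type and in Rosa-PTBP1 cortex, in between the replicates as before. The rule that chose the loci used these contrasts, so nothing is read from the counts. The 4 ratios share each wild-type library, and with 1 library per PTBP group there is no replicate check of them.

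Shares differed within runs as well as between them, the run being the code in each read name. The 3 libraries of run WA047 were both FLAG-PTBP1 libraries and wild-type replicate 2, while PTBP2 and wild-type replicate 1 mixed runs XA041 and XB028. In the mixed libraries no distinct interval was listed under both runs. How a position read in both would have been assigned is not stated. The shares of a library by run may therefore not be independent of each other. In XA041, wild-type replicate 1 held Malat1 at 0.389% (0.348 to 0.433; 326 of 83900 intervals), PTBP2 in wild type at 1.83% (1.71 to 1.95) and PTBP2 in Rosa-PTBP1 cortex at 2.34% (2.20 to 2.48). The 2 PTBP2 shares were 4.71-fold (4.14 to 5.36) and 6.02-fold (5.31 to 6.83) above that background. In XB028 the same background library held 1.99% (1.60 to 2.44; 88 of 4427 intervals), and PTBP2 in wild type held 1.99% (1.91 to 2.08), a ratio of 1.00 (0.809 to 1.25). PTBP2 in Rosa-PTBP1 cortex held 3.53% (3.32 to 3.75) there, 1.78-fold (1.43 to 2.24) above it. Wild-type replicate 1 thus held Malat1 at different shares in its 2 runs, and 83900 of its 88327 intervals came from XA041. PTBP2 in wild type differed less between the same runs, and in WA047 both FLAG-PTBP1 libraries lay below the background.

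**Figure D1:**
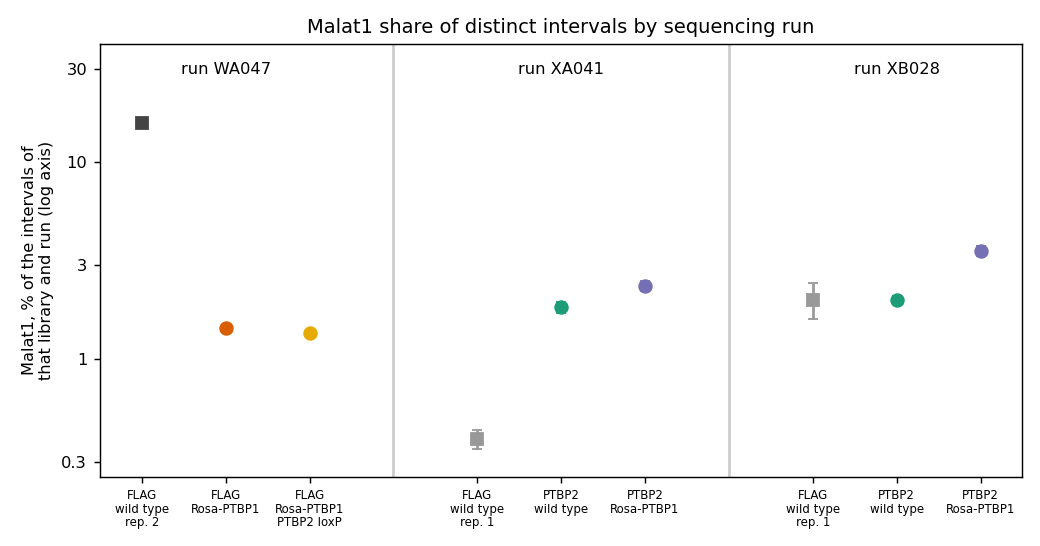
Malat1 intervals as a percent of the distinct intervals of each library within each sequencing run, on a log axis, with exact 95% intervals for counting error. Squares are the wild-type FLAG background and circles the PTBP libraries; the background lies highest in WA047 (15.9%), lowest in XA041 (0.389%) and level with PTBP2 of wild type in XB028 (1.99%).

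The position of the background relative to the PTBP libraries also depended on what was counted. Intervals that overlap or touch on 1 strand form a site. Of the intervals in sites built from 5 or more, Malat1 held 13.8% in wild-type replicate 1 (404 of 2929) and 40.1% in replicate 2, against 1.63% in FLAG Rosa-PTBP1, 1.59% with loxP alleles, 2.58% for PTBP2 in wild type and 5.24% in Rosa-PTBP1 cortex. Both background libraries then lay above all 4 PTBP libraries. This cutoff kept 2929 of 88327 intervals of replicate 1 and 10570 of 26665 of replicate 2. It kept 308769 of 351602 in FLAG Rosa-PTBP1, 226469 of 265953 with loxP alleles, 116774 of 155447 for PTBP2 in wild type and 39835 of 74416 in Rosa-PTBP1 cortex. Malat1 was kept nearly whole, with 404 of 414 intervals in replicate 1, so the background shares changed mainly through their denominators. Malat1 was densely stacked everywhere: its intervals per site numbered 18.0 in replicate 1, 235 in replicate 2, 336 in FLAG Rosa-PTBP1, 189 with loxP alleles, 201 for PTBP2 in wild type and 110 in Rosa-PTBP1 cortex. The averages over all sites of those libraries were 1.20, 2.79, 8.17, 7.62, 5.66 and 3.29. On chromosome 19 alone, Malat1 made up 18.1% of the intervals of replicate 1 and 89.5% of replicate 2, and between 55.3% and 61.8% in the PTBP libraries.

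**Figure D2:**
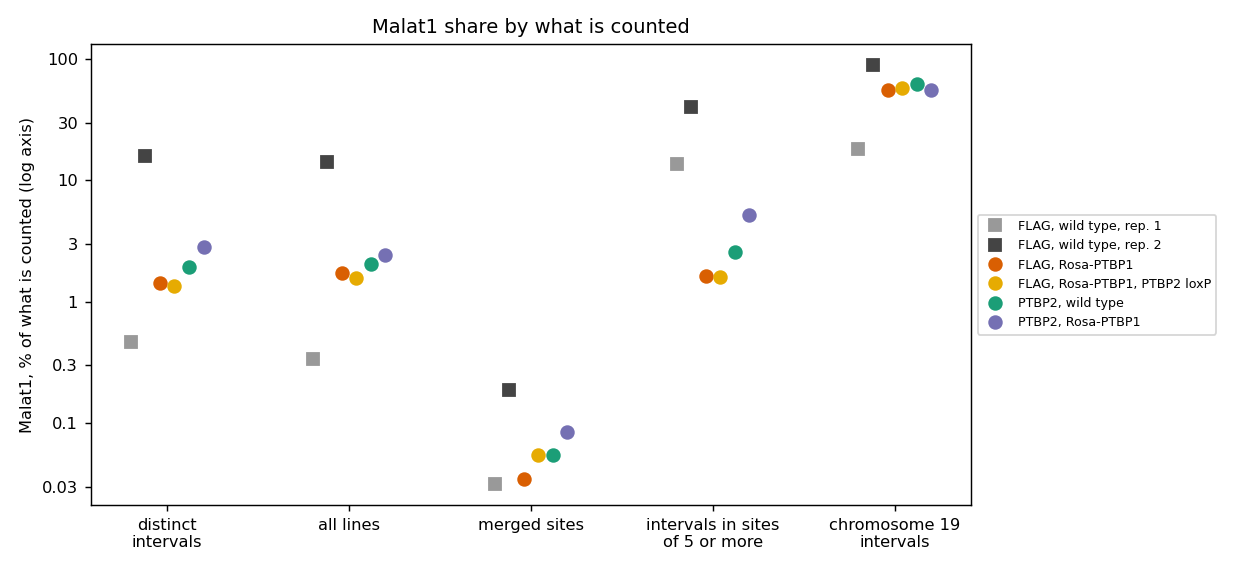
Malat1 share of each library on a log axis when distinct intervals, all listed lines, merged sites, intervals in sites of 5 or more, or chromosome 19 intervals are counted. Squares are the wild-type FLAG libraries; replicate 1 is the lowest library for distinct intervals (0.469%) but lies above every PTBP library among intervals in sites of 5 or more (13.8%).

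The Neat1 locus was listed at 0 in 5 of the 6 libraries, among them all 4 PTBP libraries. The single interval, 28 bases at chr19:5843301-5843328 (mm9, minus strand), came from wild-type FLAG replicate 1, in run XA041, and overlapped no other interval of that library. No library listed an interval on either strand in the 21 kb between the loci, nor on the opposite strand of Malat1 or Neat1. An empty window was the common case: of 239784 windows of 22 kb, the width of the Neat1 locus, tiled on both strands to the last listed position of each chromosome, 88.5% were empty in wild-type replicate 1, 96.8% in replicate 2 and 94.6% to 95.5% in the PTBP libraries. In wild-type replicate 1, 17741 of 27583 such windows with any interval held more than Neat1 did. The lists hold only clusters that passed a false discovery rate, so Neat1 may have held reads below it, and no fold is given. Chromosome 19 was filled elsewhere: outside Malat1 it held between 497 and 4078 intervals a library, or 1.01% to 2.21% of its list.

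Along Malat1 nearly all intervals fell into clusters shared by the PTBP libraries and the background. Merging the intervals of all 6 libraries gave 14 regions, 11 of them listed in every library, and these 11 held 96.9% of all Malat1 intervals. The most filled region, at chr19:5797121-5798137, held 35.5% of the Malat1 intervals of FLAG Rosa-PTBP1, 30.9% of those with loxP alleles, 28.2% of PTBP2 in wild type and 24.3% of PTBP2 in Rosa-PTBP1 cortex. The wild-type FLAG replicates held 31.2% and 33.9% there, inside the range of the PTBP libraries. The next region, at chr19:5799247-5799873, held 19.1%, 19.98%, 26.5% and 25.4% in the same order, and 27.5% and 21.5% in the wild-type replicates. Another filled region, at chr19:5800751-5801072, held 10.4%, 13.4%, 12.4% and 11.9%, and 9.66% and 10.9%. The edges of the locus were empty: the regions ran from 628 to 6925 bases from its upstream edge, and the next listed interval of the strand lay at least 34.1 kb from either edge in all 6 libraries.

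**Figure D3:**
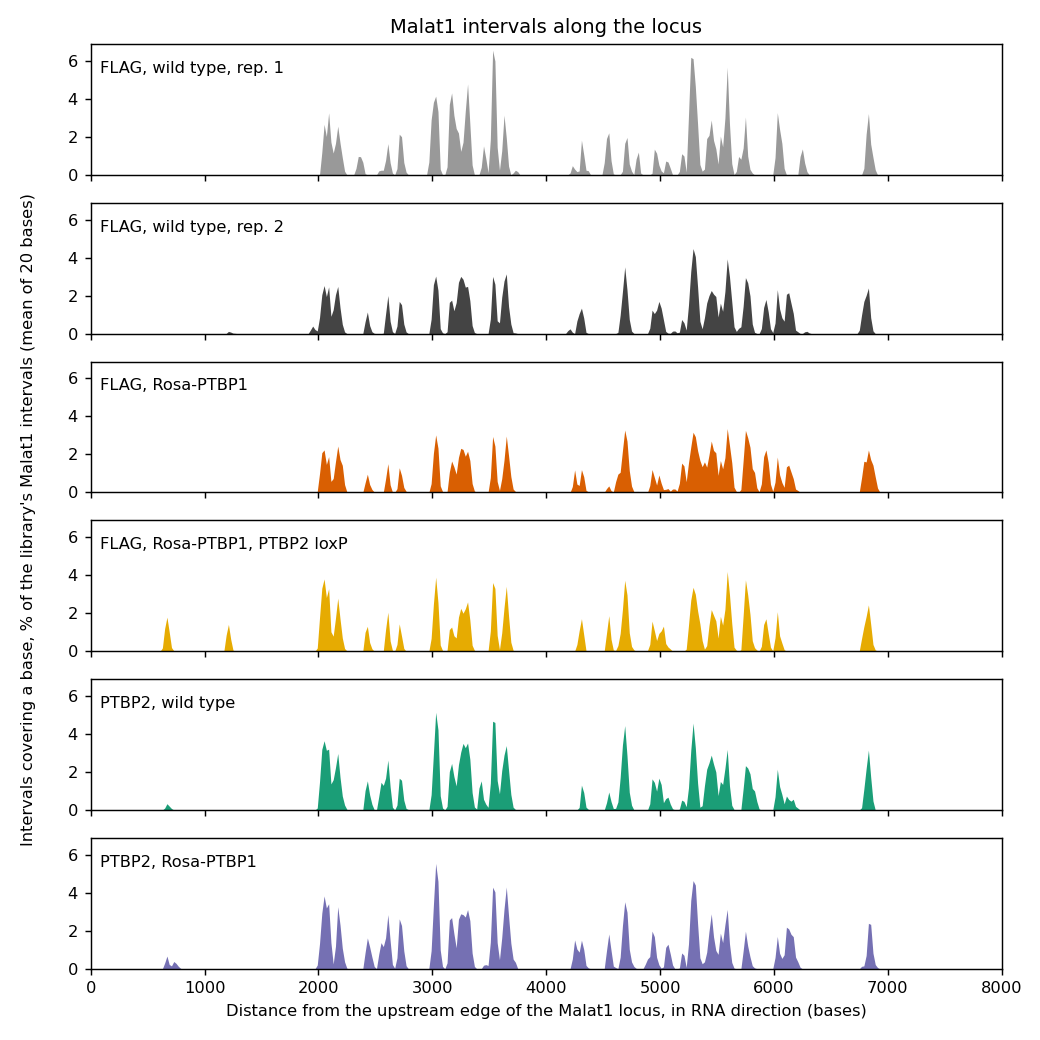
Percent of each library's Malat1 intervals that cover a base, averaged over 20 bases, against the distance from the upstream edge of the locus in the direction of the RNA. Most clusters recur in the 2 wild-type FLAG libraries and the 4 PTBP libraries, and small clusters before 1500 bases are highest with PTBP2 loxP alleles.

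The similarity of the profiles did not separate PTBP libraries from background. Over 16 bins of 500 bases, Pearson's r between a PTBP library and a wild-type FLAG library was 0.94 at the median of 8 pairs (0.90 to 0.98). Between 2 PTBP libraries it was 0.90 at the median of 6 pairs (0.84 to 0.99), and between the wild-type replicates 0.97. These values are descriptions across bins that share the locus, its sequence and its empty edges. The 3 bins with the highest mean share lay 3000 to 3500, 5000 to 5500 and 5500 to 6000 bases from the upstream edge. Together they held between 42.4% (PTBP2 in Rosa-PTBP1 cortex) and 51.9% (FLAG Rosa-PTBP1) of the Malat1 intervals of a library, with 50.7% and 50.2% in the wild-type replicates. The base covered by most intervals lay 5590 and 5592 bases from the upstream edge in the FLAG-PTBP1 libraries without and with loxP alleles. It lay at 3543 and 3028 bases for PTBP2 in wild type and in Rosa-PTBP1 cortex, and at 3544 and 5296 in wild-type replicates 1 and 2.

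A difference inside Malat1 lined up with the sequencing run. The bin from 5500 to 6000 bases held 18.3% (17.2 to 19.4), 16.8% (15.6 to 18.1) and 16.2% (15.1 to 17.3) of the Malat1 intervals in FLAG-PTBP1 without loxP alleles, in FLAG-PTBP1 with them and in wild-type replicate 2, which share run WA047. It held 9.97% (8.93 to 11.1), 7.57% (6.47 to 8.79) and 12.6% (9.52 to 16.1) in PTBP2 of wild type, PTBP2 of Rosa-PTBP1 cortex and wild-type replicate 1. The region at chr19:5797007-5797117 lies inside that bin and adds to its counts, so it is not a separate observation. It was listed in the 3 libraries of WA047 alone, with 187, 89 and 111 intervals in the same order, and at 0 in the other 3. The region was chosen after its values were seen, and wild-type replicate 1 has 414 Malat1 intervals in all. Whether run or antibody has a part in it was not tested.

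Near the upstream end of Malat1, 2 small regions were listed in some libraries only and were chosen here after their values were seen. The region at chr19:5802212-5802372 held 88 intervals in FLAG with loxP alleles (2.45% of its Malat1 intervals), 10 in PTBP2 of wild type (0.331%) and 22 in PTBP2 of Rosa-PTBP1 cortex (1.05%). It was listed at 0 in FLAG Rosa-PTBP1 and in both wild-type FLAG libraries, so it is the only 1 of the 14 regions that was listed in PTBP libraries and in neither background library. In PTBP2 of Rosa-PTBP1 cortex it came from both runs, with 15 intervals in XA041 and 7 in XB028. The region at chr19:5801730-5801826 held 56 intervals in FLAG with loxP alleles and 5 in wild-type replicate 2 and was listed at 0 in the other 4. As the lists are thresholded, a region listed at 0 may still have held reads.

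**Figure D4:**
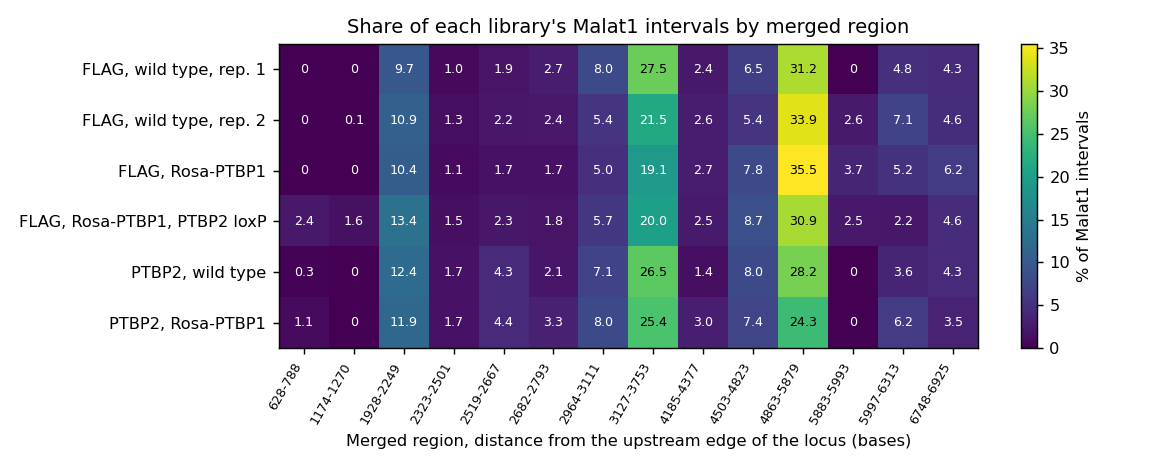
Percent of each library's Malat1 intervals in each of the 14 merged regions, ordered by distance from the upstream edge of the locus; 0 marks a region listed at 0. Rows of the background and of the PTBP libraries share the same filled columns, and the column at 5883-5993 bases is filled in the 3 libraries of run WA047.

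For 3 pairs of PTBP libraries the Malat1 shares of distinct intervals differed by less than 2-fold, and for 2 of the pairs other ways of counting moved the ratio past it. FLAG-PTBP1 with PTBP2 loxP alleles, which Cre can delete, held Malat1 at 0.944 times (0.904 to 0.985) the share without them, while 14.0% of other windows were higher and 27.5% lower by 2-fold or more. A change of this size is small beside the 33.9-fold difference of the wild-type replicates, and its direction turned on chromosome 19 alone (1.04 times) and on the 12 filled chromosomes (1.03 times). Within Malat1, the loxP library held less in the region at chr19:5796687-5797003, with 80 intervals (2.22%) against 263 (5.22%), or 2.35-fold lower (1.82 to 3.05). This was 1 of 12 regions past 2-fold among those listed in both libraries. PTBP2 held Malat1 at a share 1.44-fold (1.37 to 1.53) higher in Rosa-PTBP1 cortex than in wild type, by 1.28-fold (1.17 to 1.40) in run XA041 and 1.78-fold (1.65 to 1.91) in XB028. Of other windows, 14.8% were higher and 41.1% lower by 2-fold or more. These include windows of chromosomes 4 to 9, which held 5.84% of the list of Rosa-PTBP1 cortex against 30.3% in wild type. On chromosome 19 alone the direction turned, with 56.0% (54.4 to 57.6) in Rosa-PTBP1 cortex against 61.8% (60.4 to 63.2) in wild type, and over the 12 filled chromosomes the ratio was 1.05. With sites of 5 or more intervals it was 2.03. Within Malat1, 2 of 12 regions were past 2-fold, chr19:5798623-5798815 at 2.12 times (1.42 to 3.20) and chr19:5802212-5802372 at 3.18 times (1.45 to 7.53). Within Rosa-PTBP1 cortex, FLAG-PTBP1 held Malat1 at 0.511 times (0.486 to 0.538) the share of PTBP2, beside 62.7% of other windows higher and 14.8% lower by 2-fold or more. Those windows too include chromosomes 4 to 9 (34.5% of the FLAG-PTBP1 list, 5.84% of that of PTBP2) and chromosome 10 (0.151% and 8.56%). In the loxP pair, chromosome 10 held 0.151% without loxP alleles and 6.36% with them. The Malat1 ratio of FLAG-PTBP1 to PTBP2 was 0.987 on chromosome 19 alone and 0.668 on the 12 filled chromosomes. It was 0.415 with merged sites, 0.311 with sites of 5 or more intervals and 0.410 without the densest 1 kb, all past 2-fold. Within Malat1, 1 of 11 regions was past 2-fold, chr19:5800333-5800481 at 0.391 times (0.288 to 0.531). These libraries share no run, so antibody and run cannot be told apart. With 1 library in each group, none of these differences can be set against replicates of its own group. A share of listed intervals does not measure the amount of Malat1 RNA. In bulk tissue, fewer cells with Malat1, less Malat1 RNA per cell and less binding cannot be told apart by it.

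Identical intervals recurred between libraries more often in Malat1 than elsewhere, as a share of its intervals. Of the Malat1 intervals of wild-type replicate 2, 27.0% (25.6 to 28.3) had the same start and end as one of FLAG Rosa-PTBP1, from the same run, and 15.4% (14.3 to 16.5) as one of PTBP2 in wild type, from other runs. As shares of the other list these were 22.7% of FLAG Rosa-PTBP1 and 21.6% of PTBP2 in wild type. Outside Malat1 the shares of replicate 2 were 1.45% and 0.682%. Of the 414 Malat1 intervals of replicate 1, from other runs than FLAG-PTBP1, 24.9% (20.8 to 29.3) matched one of FLAG Rosa-PTBP1 at both ends, against 0.108% of its intervals elsewhere. Malat1 intervals lie more densely than those elsewhere, and the part of that density in the matches was not tested. At least 89.5% of the Malat1 intervals of each PTBP library overlapped a Malat1 interval of wild-type replicate 1 by 1 base or more, and at least 95.5% one of replicate 2. With 50% overlap asked for, the lowest values were 84.4% and 93.9%. Such overlap was not counted outside Malat1, so these values cannot be called particular to it.

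The intervals themselves were short and filled about the same length of the locus in background and PTBP libraries. The intervals covered between 2416 bases (wild-type replicate 1) and 3047 bases (FLAG Rosa-PTBP1) of the 8-kb locus. Their median length was 32 to 38 bases, and 28 bases for the single Neat1 interval. A read interval was repeated on 1.29, 1.26, 1.28 and 1.40 lines on average in FLAG-PTBP1 without and with loxP alleles, then PTBP2 of wild type and of Rosa-PTBP1 cortex, and on 3.09 and 1.35 lines in wild-type replicates 1 and 2. Outside Malat1 these averages were 1.06, 1.09, 1.20 and 1.63, and 4.27 and 1.52.

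The windows most like Malat1 over the 6 libraries held far fewer intervals in the background. Among 3083 windows with 50 or more intervals in all, the nearest by Euclidean distance of the log2 shares (0.5 added to each count) lay on the minus strand of chromosome 2 from 6.776 to 6.784 Mb, at a distance of 5.63. Its shares were 0.0657% and 0.720% in wild-type replicates 1 and 2, 0.804% and 0.799% in FLAG-PTBP1 without and with loxP alleles, and 1.02% and 1.13% for PTBP2 in wild type and in Rosa-PTBP1 cortex. There wild-type replicate 2 lay below all 4 PTBP libraries, where for Malat1 it lay above them. The next windows were the adjoining one on chromosome 2 from 6.784 to 6.792 Mb (distance 7.89), and one on the minus strand of chromosome 3 from 80.488 to 80.496 Mb (9.99). For Neat1, the nearest of 2810 windows of 22 kb lay on the minus strand of chromosome 8 from 30.294 to 30.316 Mb, at a distance of 7.01, with 6 intervals in wild-type replicate 1, 51 in FLAG Rosa-PTBP1 and 0 in the other 4 libraries. Chromosome 8 is among chromosomes 4 to 9, which held 5.84% of the list of PTBP2 in Rosa-PTBP1 cortex. The window's 0 in that library therefore says little about likeness to Neat1. A window needs 50 intervals to be compared, so no compared window could be as empty as Neat1.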

How the data were processed

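Per the submitters' processing notes, reads were aligned with Bowtie to mm9; the sources used here give no version, cluster caller or false discovery rate cutoff. The deposited lists give the other measure used here, mm9 positions of read intervals, with no score, count or gene. Per the labels' protocols, micrococcal nuclease trimmed the RNA, and complexes of 80 to 110 kDa were cut from the blot. Lines were collapsed to distinct intervals and assigned to a locus by midpoint with Python 3.11.15, pandas 2.3.3 and scipy 1.17.1. Libraries held 26665 to 351602 distinct intervals, which sets the counting error. No significance test was run, because each group but one holds 1 library. Shares have exact Clopper-Pearson intervals, and ratios of 2 libraries exact conditional binomial intervals. The code of the window comparison was run on simulated data, as a check of its counting only.

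The loci, bins and lists were chosen with earlier results of these data known. Named bins were the 3 fullest of 500 bases, and named windows the nearest in share over the 6 libraries; the 3 nearest of 5 are given. Comparison windows tile the genome without either locus, need 20 intervals, and count as called past 2-fold. The lists of nuclear noncoding RNAs and paraspeckle proteins were not analysed here, because no mm9 annotation was used; coordinates were not converted. Transcript sequences are from GENCODE M21. Alternatives counted sites, lines or stacked sites, changed the denominator or the locus rule, or left out shared intervals, the densest 1 kb, a run or a wild-type replicate.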

Additional observations from a re-analysis of the deposited data

How the results depend on the processing

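Ratios here are log2 of the Malat1 share. Against the mean of the wild-type FLAG libraries they were -2.51 in FLAG Rosa-PTBP1, -2.59 with loxP alleles, -2.07 for PTBP2 in wild type and -1.54 in Rosa-PTBP1 cortex. Replicate 2 decides this sign: leaving out 1 wild-type replicate gave -3.47 to 1.61, -3.55 to 1.53, -3.03 to 2.05 and -2.50 to 2.58, positive each time without replicate 2. Chromosome 19 alone also turned it, to 0.040, 0.093, 0.20 and 0.058. There Malat1 is part of its own denominator, at 18.1% and 89.5% in replicates 1 and 2, so replicate 2 lies near the ceiling of a share. Malat1 was left out of the denominator for whole lists only, so nothing is read from that change of sign. For PTBP2 the sign also turned within run XA041 (2.24 and 2.59) and XB028 (0.0018 and 0.83), where replicate 1 is the only background. With merged sites the 4 ratios were -1.65, -1.01, -1.01 and -0.39, the last no longer past 2-fold, and with sites of 5 or more intervals -4.05, -4.08, -3.38 and -2.36. With all lines, unshared intervals, any overlap with the locus, without the densest 1 kb, Malat1 left out of the denominator or filled chromosomes, the sign held. The spread of the wild-type pair (log2 SD 3.59, n = 2) is too wide to judge these shifts by.

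The loxP, transgene and antibody ratios were -0.08, 0.53 and -0.97. They became 0.64, 0.62 and -1.27 with merged sites, -0.16, 0.24 and -0.48 with all lines, 0.054, -0.14 and -0.018 on chromosome 19, and 0.045, 0.074 and -0.58 on chromosomes filled in all libraries (added after the data were seen). Without intervals shared between libraries, the loxP ratio was -0.25 and the antibody ratio -0.82; without the densest 1 kb they were 0.054 and -1.29. With sites of 5 or more intervals the transgene and antibody ratios were 1.02 and -1.68. The transgene ratio was 0.35 in XA041 and 0.83 in XB028. The cause was not tested. Neat1 was at 0 in the 4 PTBP libraries and wild-type replicate 2 under every alternative that changed what was counted or the locus rule, so its ratios gave no value. In wild-type replicate 1 Malat1 held 414 intervals to 1 of Neat1 (exact interval of the ratio 73.9 to 16391) and 23 sites to 1. No paired analysis was possible because only the wild-type FLAG group carries replicate numbers. The lists hold no reads below their threshold, which limits every statement about regions listed at 0.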
